A study of Mus musculus with 90 samples.

Results

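The 50 genes described here encode proteins of G2 and mitosis. They were taken by name from the deposited table, in which all 50 of them were found among 24543 genes, and their values were read in all 90 libraries of the 38 groups. The rule lists names and uses no measured value, but the list was drawn up with earlier results of these data known. By their textbook roles the 50 fall into 8 groups, namely entry into mitosis (6 genes), the spindle checkpoint (4), the centromere and kinetochore (8), the chromosomal passenger complex (4), the onset of anaphase (3), the spindle and its motors (10), cytokinesis (6), and chromosome structure and cohesion (9).

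Cells enter mitosis when cyclin A and cyclin B activate the kinase Cdk1, and they leave it when the anaphase-promoting complex destroys the cyclins and the securin Pttg1. Between these steps the duplicated chromosomes are condensed, attached to the spindle through their kinetochores, held back by the spindle checkpoint and parted, and the cell is then divided by cytokinesis. Transcripts of most of these genes are low in resting cells and build up in G2, so that in a tissue or culture they are widely used to follow dividing cells. Bone marrow-derived macrophages (BMMs) divide in response to the growth factor M-CSF. Osteoclasts are bone-resorbing cells that form when BMMs are also given RANKL and fuse into cells with several nuclei.

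RNA of cultured mouse BMMs was sequenced in 3 experiments. In the first, BMMs of Irf8-/- mice (KO), which lack the transcription factor IRF8, and of Irf8+/+ mice (WT) were taken at day 0 in M-CSF, and at days 4 and 8 in M-CSF and RANKL. Each of these groups had 3 libraries, except WT at day 4 with 2. In the second, all cells were Irf8-/- BMMs, transduced with human IRF8 as hIRF8G388S (hG388S), as hIRF8379-389 (h379_389) or as the wild-type form hIRF8WT (hWT), or mock. They were taken at the same days, with 3 libraries a group at days 0 and 4 and, at day 8, 2, 3, 2 and 2 libraries in that order of constructs. In the third, BMM-derived macrophages of the same 4 kinds were left untreated, given IFNg, or given IFNg with LPS for 1, 4 or 8 h, with 2 libraries a group. The mice were of both sexes. The labels name neither the vector nor the age of the mice, and they do not say whether replicates came from separate animals or cultures, so p-values measure the spread between these libraries, which may be technical.

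Values are RPKM, in which a gene's reads are divided by its length in kilobases and by the alignments of its library in M (1e6). Libraries held 0.218 to 122 M alignments, with a median of 41.1 M and a second lowest of 15.6 M. The one far below the rest was an untreated macrophage library of hWT (replicate 1), in which several members are listed at 0. Irf8 itself read 32.5 to 34.2 RPKM in KO and 69.1 to 74.0 RPKM in WT at day 0, and 6.22 to 7.08 RPKM in KO and 7.43 to 12 RPKM in WT at day 8. In untreated macrophages it read 59.5 to 63 RPKM with hG388S, 59.6 to 60 RPKM with h379_389, 64.1 to 146 RPKM with hWT and 68.5 to 77.5 RPKM in mock, so it did not set the constructs above mock there. In all other conditions every construct library lay above those of mock. With IFNg the constructs read 188 to 210 RPKM and mock 160 to 165 RPKM. In the second experiment they read 47.4 to 73.6 and 18.3 to 24 RPKM at day 0, 14.5 to 25.9 and 6.33 to 6.9 RPKM at day 4, and 12.5 to 26.3 and 5.81 to 6.56 RPKM at day 8. Whether reads of the human construct are counted under this gene is not stated, and a value per gene does not tell a deleted transcript from an intact one. The defining osteoclast genes summed to 31270 to 46860 RPKM in KO and 17023 to 17496 RPKM in WT at day 4. Beside the untreated macrophages with hWT, libraries within WT day 4, KO day 4 and KO day 8 held the largest deviations from their group means (SD over genes of up to 0.410, 0.534 and 0.443 on the log2 scale), and the differences between them ran with gene length. Their values are printed library by library below.

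Across the 38 groups the mean level of the 50 genes, as the mean of log2(RPKM + 1), was highest in KO at day 0 (4.85) and lowest in mock macrophages given IFNg and LPS for 8 h (0.71). KO at day 0 (4.81 to 4.88 over 3 libraries) overlapped the day 8 groups with hG388S (4.83 to 4.86), h379_389 (4.78 to 4.83) and hWT (4.82 to 4.83), so that these could not be put in order. WT at day 8 stood at 3.95, KO at day 8 at 3.41 and mock at day 0 at 3.21. KO at day 4, WT at days 0 and 4 and every macrophage group stood at 2.18 or lower. In KO at day 0 all 50 genes reached 1 RPKM, and the highest was Ube2c, the ubiquitin-conjugating enzyme of the anaphase-promoting complex, at 134 RPKM. In WT at day 0, 20 of the 50 reached 1 RPKM, and the highest was Incenp, the scaffold of the chromosomal passenger complex, at 18.1 RPKM. In bulk RNA, fewer cells in mitosis and less RNA of these genes per cell cannot be told apart.

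Most of the 50 genes followed one course. Over the 38 group means, 43 of them had a Pearson correlation above 0.95 with the mean of the other members; the groups share their libraries' depth and scaling, so this is a description. The 7 below that were Pttg1 (-0.64), the spindle assembly factor Tpx2 (0.57), the checkpoint protein Mad2l1 (0.81), the proliferation antigen Mki67 (0.83), the chromosome-bound kinesin Kif4 (0.87), the centromeric histone Cenpa (0.88) and Incenp (0.89). Pttg1 was lowest in WT at day 8 (6.99 RPKM) and highest in hG388S macrophages given IFNg and LPS for 4 h (57.3 RPKM), the reverse of most other members.

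Because so many of these genes moved together, their promoters were read. The window of 250 bases before to 50 bases after the gene start, from the RefSeq genes of GRCm38.p6, was at hand for 41 of the 50. The cell cycle genes homology region (CHR, searched as TTTGAA and TTCGAA), which binds the DREAM and MuvB complexes, occurred in 32 of the 41 (78.0%), against 19.5% of the windows of 27025 genes. CCAAT, the box bound by NF-Y, occurred in 30 of 41 (73.2%), against 38%. Both occurred in 27 of 41 (65.9%), against 7.73%. An E2F-like element (TTCCCGC, or the same with GG, CG or GC in place of its first CC) occurred in 10 of 41 (24.4%), against 9.72%. Both strands were searched, and no searched word contains another. The windows of Mad2l1, Nuf2, Birc5, Pttg1 and Nusap1 held none of these letters. Of these, Nuf2, Birc5 and Nusap1 followed the common course all the same. The windows of Mki67, Cenpa and Kif4, which left it, held both CHR and CCAAT.

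The windows of 5 genes are printed, in which capitals mark CHR, CCAAT and E2F-like letters on either strand and position 1 is the start base. The window of Cdk1 (chr10:69352863-69353162, minus strand) and that of Prc1, the midzone bundling protein (chr7:80294201-80294500, plus strand), are shown as genes of the common course that hold both elements. Cdk1 holds CHR at -71 and -15, and Prc1 holds CHR at -5 and CCAAT at -37. Those of Kif4 (chrX:100625815-100626114, plus strand), Mad2l1 (chr6:66534971-66535270, plus strand) and Pttg1 (chr11:43425932-43426231, minus strand) belong to genes that left that course in macrophages.
Cdk1: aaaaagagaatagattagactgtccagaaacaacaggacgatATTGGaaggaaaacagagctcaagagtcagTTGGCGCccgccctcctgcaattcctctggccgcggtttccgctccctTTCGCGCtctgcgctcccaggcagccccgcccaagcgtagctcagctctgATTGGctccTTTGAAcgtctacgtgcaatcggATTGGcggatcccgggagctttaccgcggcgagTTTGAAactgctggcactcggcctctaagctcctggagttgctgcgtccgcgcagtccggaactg
Prc1: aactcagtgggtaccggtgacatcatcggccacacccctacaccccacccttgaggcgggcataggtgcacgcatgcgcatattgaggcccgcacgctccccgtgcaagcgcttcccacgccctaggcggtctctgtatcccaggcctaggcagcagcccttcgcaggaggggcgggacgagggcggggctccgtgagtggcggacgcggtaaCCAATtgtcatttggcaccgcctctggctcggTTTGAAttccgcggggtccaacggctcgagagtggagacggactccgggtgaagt
Kif4: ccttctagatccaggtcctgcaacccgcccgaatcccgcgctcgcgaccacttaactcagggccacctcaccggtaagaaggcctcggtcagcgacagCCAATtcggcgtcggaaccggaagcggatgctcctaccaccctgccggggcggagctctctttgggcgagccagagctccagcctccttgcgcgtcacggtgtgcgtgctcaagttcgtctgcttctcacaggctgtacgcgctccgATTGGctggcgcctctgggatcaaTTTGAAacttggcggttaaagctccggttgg
Mad2l1: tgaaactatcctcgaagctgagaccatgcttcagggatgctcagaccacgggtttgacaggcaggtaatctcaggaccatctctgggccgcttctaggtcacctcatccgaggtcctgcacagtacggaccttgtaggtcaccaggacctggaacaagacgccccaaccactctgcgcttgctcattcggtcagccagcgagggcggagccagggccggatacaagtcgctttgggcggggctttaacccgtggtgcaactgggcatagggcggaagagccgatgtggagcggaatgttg
Pttg1: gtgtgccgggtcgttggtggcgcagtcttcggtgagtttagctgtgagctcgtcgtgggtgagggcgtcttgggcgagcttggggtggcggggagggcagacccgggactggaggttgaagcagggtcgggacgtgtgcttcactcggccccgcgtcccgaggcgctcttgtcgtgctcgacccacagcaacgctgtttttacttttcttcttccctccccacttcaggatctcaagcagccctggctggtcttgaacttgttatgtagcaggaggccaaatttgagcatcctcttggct
Kif4 holds CHR at 20 and CCAAT at -152 and -5, while Mad2l1 and Pttg1 hold none of the letters searched. A match is a description of these letters and was not tested as a binding site.

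The first comparison asks how the loss of Irf8 bears on these genes before RANKL. At day 0, 49 of the 50 were higher in KO than in WT and none was lower, and the median log2 fold change was 3.88, against 0.12 over all 11530 genes tested. Over all genes 40.2% passed the same test in either direction and 26.5% were higher. The one member that did not pass was Pttg1. In 49 of the 50 genes the 3 KO libraries lay above all 3 WT libraries. The share of all genes that separated in this way was not counted, so this is a description. The count was 49 in each of the refits that left out 1 of the 6 libraries. Scaling by medians of ratios moved the median of all genes by -0.16 and left 49 members higher and none lower.

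Entry into mitosis had the largest median log2 fold change of the 8 groups (4.90). Ccna2, cyclin A2, had 75.9, 70.9 and 70.5 RPKM in the KO libraries, against 0.892, 0.556 and 0.650 RPKM in the WT libraries, a log2 fold change of 5.44 ± 0.21 (SE; limma, adjusted p = 3.99e-11). Ccnb1 and Ccnb2, the B cyclins, averaged 48.4 ± 1.92 and 61.5 ± 1.16 RPKM in KO and 0.498 ± 0.0482 and 0.894 ± 0.141 RPKM in WT (SD, n = 3 each). Their partner kinase Cdk1 averaged 43.3 ± 1.51 RPKM in KO and 3.21 ± 0.359 RPKM in WT. Plk1, the polo kinase that drives entry and spindle assembly, averaged 48 ± 1.23 RPKM in KO and 0.817 ± 0.0113 RPKM in WT, and Cdca3, a ubiquitin ligase adaptor that promotes entry, 64 ± 1.61 RPKM in KO and 2.38 ± 0.668 RPKM in WT. All 6 genes of the group passed.

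All 4 checkpoint genes were higher in KO. Mad2l1, which holds back anaphase until kinetochores are attached, had 44.9, 42.3 and 44.1 RPKM in KO and 3.31, 2.90 and 3.08 RPKM in WT (log2 fold change 3.45 ± 0.16, limma, adjusted p = 2.05e-10). The kinases Bub1 and Ttk and the kinase-like Bub1b had log2 fold changes of 3.90, 3.04 and 3.85. WT cells therefore held some Mad2l1 RNA, while Ttk, at 0.152 RPKM, was among their lowest members.

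All 8 centromere and kinetochore genes were higher too, by 1.6 to 4.28 on the log2 scale. Cenpa had 38.5, 40.8 and 41.7 RPKM in KO and 13.9, 12.1 and 12 RPKM in WT, a log2 fold change of 1.6 ± 0.26 (limma, adjusted p = 0.000131), the smallest of the 49. Cenpk, of the inner kinetochore, had 1.69, while the 4 subunits of the NDC80 complex, which grips microtubules, had 3.98 (Ndc80), 4.28 (Nuf2), 3.29 (Spc24) and 4.03 (Spc25). The kinesin Cenpe and the large corona protein Cenpf had 3.57 and 3.13. Cenpa and Cenpk thus differed least between KO and WT, Cenpa from a WT level of 12.7 RPKM and Cenpk at low levels in both (3.58 ± 0.483 RPKM in KO and 0.416 ± 0.104 RPKM in WT, SD, n = 3 each).

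Of the chromosomal passenger complex, which corrects attachments and guides cytokinesis, Incenp had 69.8, 70.5 and 70.4 RPKM in KO and 18.8, 17.8 and 17.6 RPKM in WT (log2 fold change 1.90 ± 0.28, limma, adjusted p = 5.87e-05). Its kinase Aurkb and its targeting subunits Birc5 (survivin) and Cdca8 (borealin) had log2 fold changes of 3.12, 4.10 and 3.95. The scaffold was thus present in WT cells at a level that its partners, at 2.85 RPKM or lower, did not reach.

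Anaphase onset divided. Ube2c had 139, 131 and 134 RPKM in KO and 8.32, 7.49 and 6.01 RPKM in WT (log2 fold change 4.04 ± 0.31, limma, adjusted p = 4.99e-08), and Cdc20, the activator of the anaphase-promoting complex, had a log2 fold change of 4.44. Pttg1, the securin that keeps separase inactive, had 7.87, 8.84 and 8.37 RPKM in KO and 8.84, 9.06 and 9.85 RPKM in WT (-0.13 ± 0.33, limma, adjusted p = 0.803), and the groups overlapped.

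The 10 spindle genes were all higher in KO. Aurka, the centrosomal kinase, had 36.5, 36.9 and 36.5 RPKM in KO and 0.966, 0.881 and 1.25 RPKM in WT (log2 fold change 4.22 ± 0.14, limma, adjusted p = 1.64e-11). Its activator Tpx2 had 4.43. The motor proteins Kif11, Kif15, Kif18b, Kif2c and Kif4 had log2 fold changes of 4.22, 3.14, 3.42, 4.01 and 3.50, and the spindle-bound proteins Nusap1, Hmmr and Dlgap5 had 4.29, 3.52 and 4.08.

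All 6 cytokinesis genes were higher. Prc1 had 55.7, 51.8 and 53 RPKM in KO and 0.920, 1.07 and 0.864 RPKM in WT (log2 fold change 4.80 ± 0.17, limma, adjusted p = 2.58e-11). Kif20a, Anln (anillin, of the contractile ring), Ect2 (which activates the GTPase RhoA) and Racgap1 had 4.22, 4.38, 3.77 and 3.92, and Kif23, the partner of Racgap1 in centralspindlin, had the smallest of the group, 2.83.

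All 9 genes of chromosome structure and cohesion were higher. Top2a, the topoisomerase that untangles sister chromatids, had 94.6, 91.5 and 94.0 RPKM in KO and 1.69, 1.26 and 1.15 RPKM in WT (log2 fold change 5.32 ± 0.23, limma, adjusted p = 9.78e-11). Mki67, which coats mitotic chromosomes, had 83.9, 79.0 and 92.0 RPKM in KO and 5.93, 5.53 and 5.77 RPKM in WT (3.67 ± 0.26, adjusted p = 2.03e-08). Of the condensin subunits, Ncapg, Ncapd2, Ncaph and Smc2 had log2 fold changes of 3.69, 4.01, 3.26 and 3.34, and Smc4, which stood at 12.5 ± 0.0706 RPKM in WT, had 1.84. Sororin (Cdca5) and the cohesin acetyltransferase Esco2 had 3.07 and 3.10. The genes with most RNA in WT cells, Incenp, Cenpa and Smc4, were thus among the 4 smallest of the 49 differences on the log2(RPKM + 1) scale.

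Lists of related genes, chosen with results of these data known, stood beside the members at day 0 as follows. Of 60 other mitosis genes 57 were higher in KO and none was lower, with a median log2 fold change of 2.76; Zwilch, a kinetochore protein, averaged 11.1 ± 0.158 RPKM in KO and 0.379 ± 0.0765 RPKM in WT, and the kinases Melk and Pbk had log2 fold changes of 3.66 and 4.67. Ncapg2 of the second condensin (-0.45, adjusted p = 0.113) and Mis12 (0.57, adjusted p = 0.0940) did not pass. All 20 replication genes were higher, among them Mcm5, with 57.7 ± 1.56 RPKM in KO against 1.28 ± 0.156 RPKM in WT, Rrm2 (5.27) and Rrm1 (3.45).

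Of 23 G2 and mitosis transcription regulators 15 were higher in KO, with E2f7 (2.62), Foxm1 (3.87) and Mybl2 (2.997) passing with the smallest adjusted p, and Nfya, a subunit of NF-Y, not passing (0.54, adjusted p = 0.0673). Foxm1 averaged 21.8 ± 0.988 RPKM in KO against 0.556 ± 0.0627 RPKM in WT. Of 16 genes of the anaphase-promoting complex and its partners 8 were higher, namely with smallest adjusted p Fbxo5 (3.22), Anapc5 (1.28) and Ube2s (2.33), while Anapc13 (0.08, adjusted p = 0.915) and Anapc2 (-0.09, adjusted p = 0.724) did not pass. Of 22 machinery genes used through the cycle 14 were higher, with Wee1 (2.52), Rcc1 (2.36) and Ran (2.57) leading and Dync1h1 and Numa1 not passing (adjusted p = 0.994 and 0.550).

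Of 14 D cyclins, related regulators and CDK inhibitors 11 were higher and 2 were lower in KO. Ccnd1, cyclin D1, averaged 242 ± 4.29 RPKM in KO and 2.62 ± 0.429 RPKM in WT, Myc had a log2 fold change of 3.85, and Ccne2 had 3.74. Cdkn1b, the inhibitor p27, was lower (15.5 ± 0.434 RPKM in KO and 37.9 ± 1.68 RPKM in WT; -1.24, adjusted p = 2.29e-05), as was Cdkn1c (-0.74, adjusted p = 0.00207). Cdkn1a, the inhibitor p21, averaged 119 ± 2.35 RPKM in KO, against 107 ± 1.58 RPKM in WT, and did not pass (0.16, adjusted p = 0.563). Medians of these lists ran from 0.48 for the anaphase-promoting complex to 2.84 for replication, under the 3.88 of the 50 members.

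Markers of other cells moved with the genotype at day 0. The 8 neutrophil precursor markers summed to 33 to 42.6 RPKM in KO and 3.62 to 5.63 RPKM in WT, and all 4 of them that could be tested were higher in KO. The 6 macrophage markers summed to 9335 to 9484 RPKM in KO and 23412 to 24332 RPKM in WT, and 5 of 6 were lower in KO. Their part in the mitosis genes was not tested.

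The genotypes then changed differently over the first days in RANKL. Nearly all members fell in KO, while in WT more rose than fell and 28 of the 50 did not pass. From day 0 to day 4, 49 of 50 members fell in KO and none rose (median -3.59; 57.9% of all genes passed in either direction and 44.2% were lower), while in WT 19 rose and 3 fell (median 0.37; 43.2% and, for higher ones, 17.6%). The test of a different change in KO and WT between days 0 and 4 passed for the same 49 members, all more negative in KO (median -4.07; 27.6% of all genes in either direction, 21.7% more negative). Scaling by medians of ratios moved the median change of all genes in KO by 0.44 and again gave 49 members lower. Ccna2 had 2.67, 0.871 and 2.29 RPKM in KO at day 4 and 2.5 and 3.48 RPKM in WT at day 4. Relative to day 0 that was -4.70 ± 0.21 in KO (limma, adjusted p = 8.01e-11) and 1.22 ± 0.23 in WT (adjusted p = 0.000966). Cyclin A2 thus ended day 4 at like low levels in both genotypes, from opposite sides.

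Other members showed the same fall in KO. Top2a had 3.99, 1.81 and 1.30 RPKM, Prc1 2.36, 1.12 and 0.991 RPKM and Mki67 3.04, 1.2 and 0.902 RPKM in KO at day 4. The falls from day 0 were -4.89 ± 0.23, -4.49 ± 0.17 and -5.06 ± 0.26 (limma, adjusted p = 1.60e-10, 2.10e-11 and 3.90e-10), and the 3 KO libraries of day 4 lay below all those of day 0. Pttg1 was again apart, with 6.10, 5.998 and 16.6 RPKM in KO at day 4 and a change of 0.03 ± 0.33 (adjusted p = 0.945). Without KO day 4 replicate 3, the library at 16.6 RPKM, it was -0.41 (adjusted p = 0.214).

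In WT the 19 that rose by day 4 included 4 of the 6 entry genes, among them Ccnb2 (1.6 ± 0.26, limma, adjusted p = 0.000297), 4 kinetochore genes, and Aurka (0.90 ± 0.16, adjusted p = 0.000517). Aurka had 2.73 and 2.84 RPKM in WT at day 4. The 3 that fell were Incenp (-1.16 ± 0.32, adjusted p = 0.00982), Mki67 (-1.23 ± 0.29, adjusted p = 0.00433) and Ncaph. These counts rest on a pair of unlike WT day 4 libraries. With 1 library left out 8 to 23 members passed, the 8 without WT day 4 replicate 3, and 14 passed without WT day 0 replicate 2 or 3. Incenp and Mki67 did not pass without WT day 4 replicate 3 (adjusted p = 0.181 and 0.0711). With array weights 2 members passed, and Ccna2, Aurka and Mki67 did not (adjusted p = 0.0783, 0.115 and 0.0542).

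At day 4 itself, 4 of 50 members were lower in KO than in WT and none was higher (median -0.18). Over all genes 13.4% passed in either direction and 10.3% were lower, so the members passed no more often than other genes. The 4 are named as a description. They were Aurkb (1.11, 0.533 and 0.524 RPKM in KO, 2.31 and 1.92 RPKM in WT; -0.87 ± 0.21, limma, adjusted p = 0.00924), Ccnb2 (-0.88 ± 0.26, adjusted p = 0.0384), Cdk1 (-0.76 ± 0.23, adjusted p = 0.0409) and Kif23. Among the abundant members Ube2c, with 5.80, 2.65 and 5.75 RPKM in KO and 5.53 and 18.4 RPKM in WT, did not pass (-1.03 ± 0.35, adjusted p = 0.0672). Without WT day 4 replicate 3 or KO day 4 replicate 2 the count was 1, and without WT day 4 replicate 1 or KO day 4 replicate 3 it was 8 and 7. Cdk1 also did not pass without KO day 4 replicate 1 (adjusted p = 0.0870), and Ube2c passed without WT day 4 replicate 1 or KO day 4 replicate 3 (adjusted p = 0.000827 and 0.0332). Ccnb2 and Cdk1 also lost the call without a filter, with medians of ratios, with array weights and with the groups alone (adjusted p of 0.0618 to 0.496), and with the replicate block (0.0633 and 0.0572), as did Aurkb with array weights and the groups alone (0.149 and 0.131).

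By day 8 the genes had risen again in both genotypes. Between day 4 and day 8, 48 of 50 rose in KO (median 2.18; 31.6% of all genes passed in either direction and 22.6% rose) and 49 rose in WT, where Pttg1 fell (median 2.51; 23% and 16.2%). Ube2c reached 81.5, 107 and 93.9 RPKM in KO and 95.7, 92.6 and 106 RPKM in WT, and the groups overlapped. Spc25 (2.85 ± 0.16, limma, adjusted p = 1.63e-08) rose with the smallest adjusted p in KO, and Ccnb1 (3.56 ± 0.19, adjusted p = 1.23e-08) in WT. Incenp did not pass in KO (0.75 ± 0.28, adjusted p = 0.0561), with 4.66, 13.3 and 12.4 RPKM at day 8 against 6.37, 4.98 and 4.18 RPKM at day 4, and did without KO day 8 replicate 1, the library at 4.66 RPKM (1.18, adjusted p = 0.000549). Without the 4 libraries with a length trend its change was -0.23 (adjusted p = 0.127). Pttg1 in WT had 6.51, 6.92 and 7.53 RPKM at day 8 against 10.1 and 27 RPKM at day 4 (-1.15 ± 0.37, adjusted p = 0.0348), and it did not pass without WT day 4 replicate 3 (-0.48, adjusted p = 0.521) or without any 1 of the WT day 8 libraries (adjusted p of 0.0626 to 0.0917).

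At day 8, 27 of 50 members were lower in KO than in WT and none was higher (median -0.55; 31.2% of all genes passed in either direction and 22.6% were lower). Top2a had 19.2, 16.9 and 13.9 RPKM in KO and 46.3, 44.4 and 43.6 RPKM in WT (-1.38 ± 0.23, limma, adjusted p = 0.000971). Prc1 had 12.7, 10.8 and 11.4 RPKM in KO and 29.4, 26.5 and 25.3 RPKM in WT (-1.16 ± 0.17, adjusted p = 0.000418). Ccna2 had 23.7, 23.5 and 19.3 RPKM in KO and 39.4, 37.4 and 33.4 RPKM in WT (-0.71 ± 0.21, adjusted p = 0.0215). In each of these genes the KO libraries lay below all WT libraries, the reverse of day 0. Ccna2 did not pass without WT replicate 1 or 2 or KO replicate 3 (adjusted p = 0.0789, 0.0621 and 0.0731). It also lost the call with a pseudocount of 0.1 and with medians of ratios (limma, adjusted p = 0.0786 and 0.0519). Without the 4 libraries with a length trend its change was -0.61.

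The lower calls fell unevenly over the roles. Of chromosome structure 7 of 9 genes were lower in KO, namely Top2a, Mki67, Ncapg, Ncapd2, Ncaph, Smc2 and Cdca5. Of the spindle 6 of 10 were lower, led by Kif4 (2.61, 2.18 and 2.58 RPKM in KO, 5.75, 5.62 and 4.90 RPKM in WT; -0.89 ± 0.12, limma, adjusted p = 0.00013) and Kif18b (-1.11 ± 0.17, adjusted p = 0.000466). Cytokinesis had 4 of 6 (Prc1, Kif20a, Racgap1, Anln), the checkpoint 3 of 4 (Bub1b, Mad2l1, Ttk), entry 3 of 6 (Ccna2, Ccnb1, Plk1), the passenger complex 2 of 4 (Incenp, Aurkb), the kinetochore 2 of 8 (Cenpe, Cenpf) and anaphase onset none of 3. Whether roles differed from each other was not tested. The KO day 8 libraries deviated from their group mean along gene length (rho of 0.385, -0.333 and -0.352), and the part of length in this pattern was not tested.

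Among abundant members that did not pass at day 8, Ube2c (-0.07 ± 0.31, limma, adjusted p = 0.884) and Cdca3 (-0.11 ± 0.28, adjusted p = 0.771) overlapped between genotypes. Mad2l1, with 22.5, 20.7 and 19.2 RPKM in KO and 30.2, 31.3 and 24.6 RPKM in WT, was just past the threshold (-0.44 ± 0.16, adjusted p = 0.0493), and was not without WT replicate 1 or 2 or KO replicate 2 or 3 (adjusted p of 0.0912 to 0.154). Mad2l1 also lost the call with a pseudocount of 0.1, medians of ratios or the groups alone. It lost it too without the 4 libraries with a length trend, and with that trend removed (adjusted p of 0.0576 to 0.415 over these refits). The test of a different change between days 0 and 8 in KO and WT, added after the data were seen, passed for 49 members, all more negative in KO (37.8% of all genes in either direction, 27.7% more negative), and Pttg1 did not pass. The day 8 count ran from 16 to 35 with single libraries left out, and the 16 came without WT day 8 replicate 1.

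**Figure D1:**
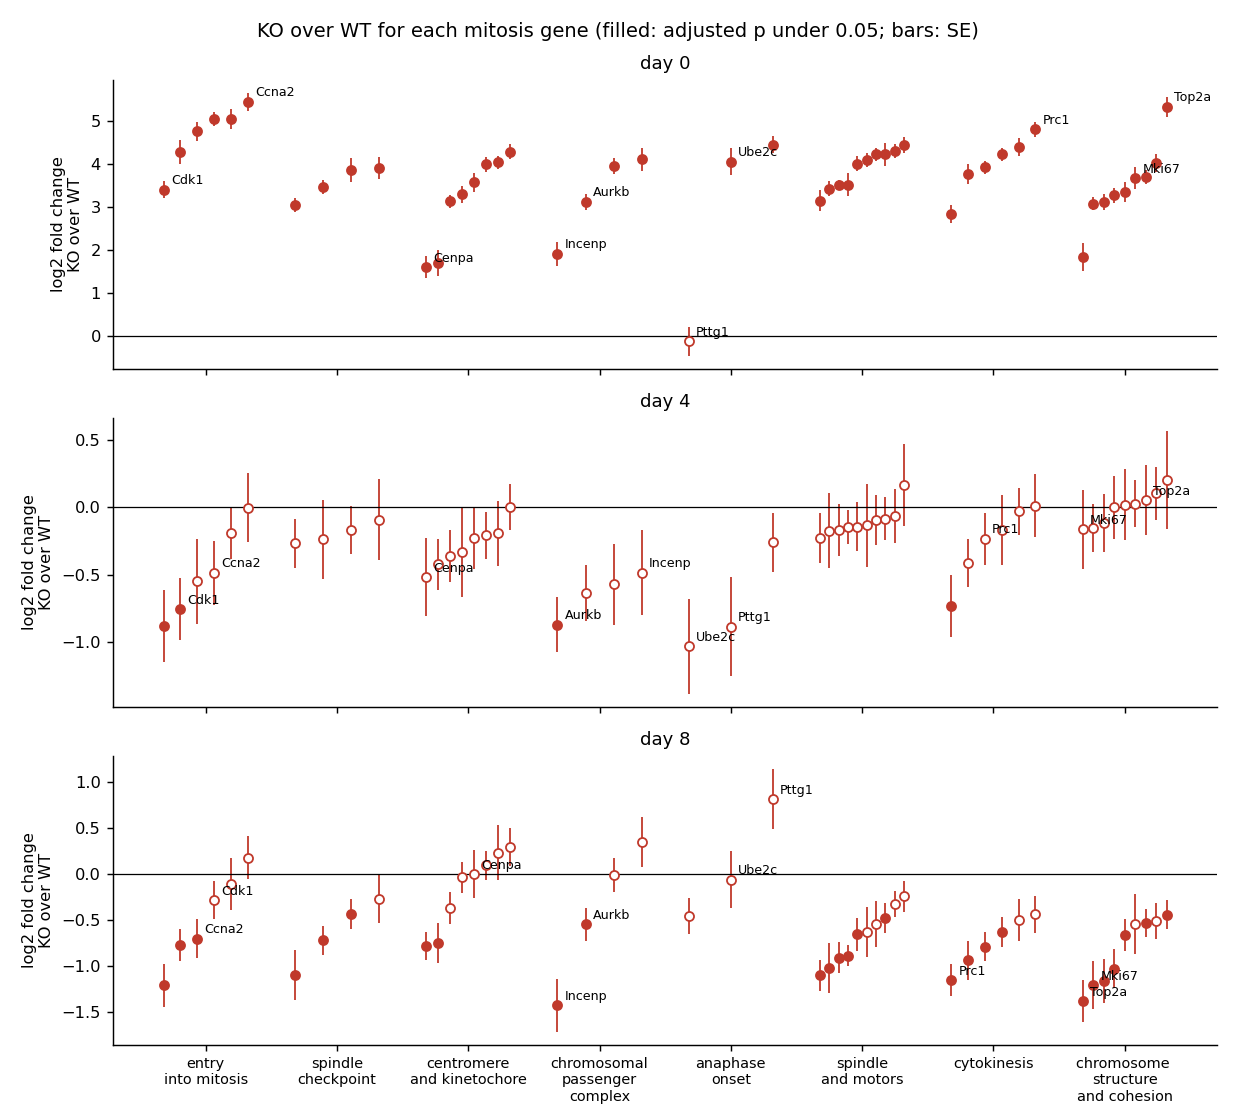
Log2 fold change of KO over WT for each mitosis gene (points) in its role group on the x axis, with 1 panel each for days 0, 4 and 8; filled points pass an adjusted p of 0.05 and bars are standard errors. The median is 3.88 at day 0, where points run from Pttg1 at -0.13 to Ccna2 at 5.44, -0.18 at day 4 and -0.55 at day 8.

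Stromal markers moved with genotype at day 8. The 8 of them summed to 1.5 to 13 RPKM in KO and 69.6 to 384 RPKM in WT, and all 6 that could be tested were lower in KO. At day 4 the sums were 0.927 to 6.69 RPKM in KO and 6.22 to 9.98 RPKM in WT. Their part in the mitosis genes at day 8 was not tested.

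The authors' deposited table for day 0 gave q-values under 0.05 for all 50 members, 49 of them higher and 1 lower in KO, among 73.3% of its genes. The authors' deposited table for day 4 gave none, and 1 of its 17054 genes (0.00586%) in all. In the authors' deposited table for day 8, 3 members were higher and 23 lower in KO at that threshold, among 28.9% of its genes.

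The second experiment asks what human IRF8 and its altered forms do to these genes in Irf8-/- cells. At day 0 most members were higher with a construct than in mock: 39 with hG388S, 42 with h379_389 and 43 with hWT, with 3 lower in each. The medians were 0.81, 0.92 and 1.10. These contrasts share the mock libraries, and over all genes 73.1%, 73.2% and 74.7% passed in either direction, 49.3%, 49.6% and 48.1% being higher. So cells given hIRF8WT stood above mock cells by 1.10, whereas KO cells stood above WT cells by 3.88 at the same day in the first experiment; these fits were separate and the difference was not tested.

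Top2a had 46.6, 47.3 and 44.8 RPKM with hG388S, 43.6, 45.6 and 68.4 RPKM with h379_389, 60.7, 85.7 and 51.3 RPKM with hWT, and 12.9, 13.8 and 17.8 RPKM in mock at day 0. Over mock that was 1.59 ± 0.14, 1.74 ± 0.14 and 2.06 ± 0.14 (limma, adjusted p = 2.56e-10, 5.31e-11 and 2.13e-12). No library with a construct overlapped the mock libraries. Ccna2 had 39.1, 32.2 and 31.1 RPKM with hG388S, 37.1, 34.6 and 35.6 RPKM with h379_389, 46.1, 36.1 and 37.3 RPKM with hWT and 19.6, 18.9 and 16.9 RPKM in mock. Ccnb1 had the smallest adjusted p in each contrast, with 1.29 ± 0.08, 1.37 ± 0.08 and 1.52 ± 0.08 (1.85e-13, 5.81e-14 and 6.75e-15), followed by Anln and Bub1b.

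The 3 members that were lower in each construct were Spc24, Pttg1 and Birc5. Spc24 had 9.59, 7.76 and 8.43 RPKM with hG388S, 9.75, 10.04 and 8.27 RPKM with h379_389, 10.2, 10.5 and 9.75 RPKM with hWT, and 13.2, 28 and 33.6 RPKM in mock. The mock libraries were all above the others, and unlike each other. Pttg1 had 11.8, 7.39 and 12.2 RPKM with hWT and 27.9, 20.6 and 16.5 RPKM in mock (-0.98 ± 0.15, limma, adjusted p = 2.47e-06). Among abundant members, Ube2c, with 93.6, 55 and 72.2 RPKM with hWT and 85.9, 92.2 and 65.9 RPKM in mock, did not pass (-0.16 ± 0.17, adjusted p = 0.410), nor did Cdca3. With scaling by medians of ratios Ube2c was lower with hWT (-0.49, adjusted p = 0.0142).

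Markers of other cells moved with the constructs as well. Neutrophil precursor markers summed to 24.5 to 42.0 RPKM with hG388S, 23.4 to 38.7 RPKM with h379_389, 28.6 to 52.9 RPKM with hWT and 55.1 to 93.5 RPKM in mock at day 0. Macrophage markers summed to 5387 to 6819 RPKM over the 3 constructs and to 20852 to 23439 RPKM in mock. Singly these 6 markers were split. With hG388S 2 were higher and 3 lower than in mock, with h379_389 2 and 4, and with hWT 2 and 3. With libraries scaled by medians of ratios, which moved the median of all genes by -0.24 to -0.26 in these contrasts, 32, 35 and 37 members were higher and 4, 6 and 4 lower, for hG388S, h379_389 and hWT in this order.

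The differences from mock ran with gene length. Exonic lengths of the 50 members ran from 1531 bases (Ccnb2) to 15433 bases (Cenpf), with a median of 5056. Over the 50 genes, which are no replicates, Spearman's rho of the log2 fold change with length was 0.37 for hG388S, 0.48 for h379_389 and 0.51 for hWT over mock at day 0, against -0.14 for KO over WT at day 0. With each library's trend with gene length removed, a step added after the data were seen, rho was 0.01 for hWT, and 42 members were higher and 3 lower.

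The altered constructs were set against hWT. At day 0, 1 of 50 members was lower with hG388S than with hWT and none was higher (0.765% of all genes passed), and it was Cenpf (-0.62 ± 0.15, limma, adjusted p = 0.0454); at an unadjusted p under 0.05, 30 were lower and none higher. With h379_389 none passed in limma (0.0176% of all genes), and at an unadjusted p under 0.05, 13 were lower and none higher. The share of all genes under that unadjusted p was not counted for either construct, so these counts have no background beside them. The count for hG388S was 26 without hWT replicate 3 and 0 without any other of the 6 libraries, and the count for h379_389 was 6 without hWT replicate 3. With array weights 49 members were lower with hG388S and 16 with h379_389.

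At day 4 members passed in both directions, at shares near those of all genes. These counts therefore do not set the members apart from other genes. With hG388S 7 were higher and 9 lower than with hWT (27.7% of all genes passed in either direction), and with h379_389 7 were higher and 10 lower (32.2%). Ube2c had 107, 108 and 123 RPKM with hG388S, 122, 113 and 121 RPKM with h379_389, and 55.5, 49.5 and 55.6 RPKM with hWT, log2 fold changes of 1.06 ± 0.17 and 1.13 ± 0.17 (limma, adjusted p = 0.000185 and 4.71e-05). Mki67 had 41, 37.8 and 34.1 RPKM with hG388S, 26.6, 31.6 and 31.6 RPKM with h379_389, and 56.6, 57.2 and 58 RPKM with hWT (-0.60 ± 0.19 and -0.92 ± 0.19, adjusted p = 0.0216 and 0.000776). Incenp, Cenpf, Cenpe and Top2a were lower with both, and Ccna2, Cenpa and Pttg1 higher with both, in contrasts that share the hWT libraries.

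These day 4 differences ran with gene length too, with Spearman's rho of -0.69 for each construct over hWT (n = 50 genes), and of 0.72 for hWT over mock. All 3 hWT day 4 libraries carry a prefix in their column names that no other osteoclast library carries, so prefix and group cannot be told apart. With the length trend removed, 6 members were higher and 5 lower with hG388S. The count with hG388S ran from 6 to 14 with 1 library left out: 8 without hG388S replicate 2, 6 without its replicate 3, and 7, 8 and 7 without hWT replicate 1, 2 and 3. In these 5 refits Mki67 did not pass with hG388S (adjusted p of 0.0530 to 0.0869).

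In the transduced Irf8-/- cells more members rose than fell over the first days in RANKL. Between days 0 and 4, 37 rose with hG388S, 27 with h379_389, 23 with hWT and 38 in mock, where 3 fell; over all genes 34.2%, 37.3%, 42.4% and 73.5% passed in either direction, and 20%, 19.5%, 26% and 50.9% rose. With hWT the count was 9 with its groups fitted alone. With scaling by medians of ratios the mock counts were 29 and 8. Neutrophil precursor markers fell over the same days, 7 of 8 with hG388S, 6 with h379_389, 7 with hWT and 8 in mock, and all 6 osteoclast markers rose in each. Their part in the mitosis genes was not tested. Prc1 in mock had 8.83, 10.6 and 12.1 RPKM at day 0, 21.2, 23.6 and 20.9 RPKM at day 4 and 26.7 and 29.9 RPKM at day 8. In KO, which also lacks Irf8, it had 55.7, 51.8 and 53 RPKM at day 0, 2.36, 1.12 and 0.991 RPKM at day 4 and 12.7, 10.8 and 11.4 RPKM at day 8. The experiments were fitted separately, and their difference was not tested.

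At days 4 and 8 most members were higher with a construct than in mock. At day 4, 41 were higher with hG388S, 37 with h379_389 and 40 with hWT, and none was lower (26.3%, 30% and 47.5% of all genes in either direction, with 13.6%, 13.3% and 23.8% higher). At day 8, 34 were higher with hG388S, 33 with h379_389 and 35 with hWT (45%, 50% and 30.6% in either direction, with 24.4%, 25.4% and 14.6% higher), and Pttg1 was lower with h379_389. Racgap1 had the smallest adjusted p with hWT at day 8 (0.75 ± 0.09, limma, adjusted p = 1.94e-07). Without mock day 8 replicate 1 these counts were 19, 22 and 15, and without hWT day 8 replicate 1 the last was 21. Osteoclast markers were lower with each construct: at day 4, 5 of 6 with hG388S, 3 with h379_389 and 5 with hWT, and at day 8, 5 with each. Their sum at day 8 was 2367 to 2634 RPKM with hG388S, 2849 to 3025 RPKM with h379_389, 3182 to 3432 RPKM with hWT and 6416 to 8129 RPKM in mock. Of 6 macrophage markers 4 were lower and 1 higher in each of these contrasts. All 3 stromal markers tested were higher with hWT at day 4 (10.2 to 21.03 RPKM summed over 8 with hWT and 0.149 to 2.93 RPKM in mock). The part of these markers was not tested.

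Between days 4 and 8, 31 members rose with hG388S, 38 with h379_389, 26 with hWT and 28 in mock (20.7%, 38.2%, 47.7% and 32% of all genes in either direction, with 9.79%, 21%, 21.3% and 14.7% higher), and 1, 1, 2 and 0 fell. Ube2c reached 167 and 188 RPKM with hG388S, 157, 179 and 168 RPKM with h379_389, 204 and 224 RPKM with hWT, and 155 and 137 RPKM in mock at day 8. Every one of these libraries lay above those of day 4. Without a single library the count with hG388S was 13 to 25, the 13 without hG388S day 8 replicate 2, with 15 without its replicate 1 and 21 without hG388S day 4 replicate 3.

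In macrophages the members were low and 47 of the 50 could be tested. With IFNg, which activates macrophages, 36 of them were lower than in untreated cells and 3 higher (71.9% of all genes passed in either direction, 49.6% being lower). Over the 8 libraries of the 4 kinds of cell, Cenpa had a lowest value of 3.46, a median of 4.56 and a highest of 5.13 RPKM in IFNg, and 13, 20.4 and 23.7 RPKM in untreated cells. The ranges did not overlap (-1.87 ± 0.09, limma, adjusted p = 2.60e-14). The members that were higher were Bub1b, Pttg1 and Tpx2, of which Tpx2 had 3.75, 5.41 and 7.07 RPKM in IFNg and 2.29, 2.61 and 6.68 RPKM in untreated cells. Libraries of 1 column-name prefix held both treatments in 3 of the 4 kinds of cell, and within it 4 members were higher and 32 lower.

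With LPS added for 1 h, 10 members were higher and 4 lower than with IFNg alone (60.1% of all genes in either direction, 11.2% being higher). Mki67 had a lowest value of 6.99, a median of 13.3 and a highest of 18.2 RPKM after 1 h, and 1.2, 1.95 and 2.34 RPKM in IFNg (2.19 ± 0.10, limma, adjusted p = 2.41e-15). Mad2l1 had 8.68, 9.47 and 11.9 RPKM after 1 h and 3.09, 4.44 and 5.18 RPKM in IFNg (1.04 ± 0.09, adjusted p = 7.65e-10). In both genes no library of 1 h overlapped one of IFNg. With scaling by medians of ratios, which moved the median of all genes by 0.20, 24 members were higher and none lower. The cells with h379_389 alone had both treatments under 1 prefix, and there 17 were higher and 1 lower. Without the shallow untreated library of hWT, which enters the common spread, 18 were higher and 5 lower.

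After 4 and 8 h of LPS most members were lower and 5 were higher. At each time 41 of 47 were lower than in IFNg and 5 higher, while 89.2% and 85.2% of all genes passed in either direction, 73.9% and 66% being lower. The median of the members at 4 h was -0.83 and that of all genes -0.74, on the log2(RPKM + 1) scale. The members thus stood at -0.09 relative to the median gene. This scale understates falls of low genes, and most members were low. Over the kinds of cell, the median of the members' group means was 1.03 to 1.51 RPKM in IFNg and 0.179 to 0.285 RPKM after 4 h. The -0.09 therefore cannot tell whether the members fell more in RPKM than the median gene. Scaling by medians of ratios moved the median of all genes by 0.73 at 4 h and 0.47 at 8 h and gave 6 higher and 35 lower, and 5 higher and 39 lower. Incenp had 2.33, 3.06 and 3.46 RPKM after 4 h and 11.4, 14.4 and 16 RPKM in IFNg (-1.91 ± 0.06, limma, adjusted p = 3.92e-20). Bub1b, one of the 3 that were higher with IFNg, had 0.177, 0.208 and 0.297 RPKM after 4 h and 3.49, 4.04 and 4.47 RPKM in IFNg (-2.03 ± 0.08, adjusted p = 8.48e-18).

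The 5 higher members were Pttg1, Tpx2, Mad2l1, Mki67 and Kif4, at both times. Pttg1 had a lowest value of 25.5, a median of 53.7 and a highest of 62.4 RPKM after 4 h, 42.4, 50.2 and 55.8 RPKM after 8 h, and 13.1, 15.2 and 17.6 RPKM in IFNg. The change was 1.56 ± 0.08 at 4 h and 1.67 ± 0.08 at 8 h (limma, adjusted p = 8.78e-15 and 3.63e-15). Tpx2 had 12.6, 16.1 and 17.4 RPKM after 4 h and 12.5, 14.3 and 16.8 RPKM after 8 h. For Pttg1 and Tpx2 no library with 4 or 8 h of LPS overlapped one of IFNg.

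Of these 5, Mki67 had its highest median at 1 h and Mad2l1 at 4 h. Mki67 had a median of 13.3 RPKM at 1 h, 8.09 RPKM at 4 h and 3.24 RPKM at 8 h, and Mad2l1 9.47, 13.2 and 7.06 RPKM. Kif4 stayed low, with 0.545, 2.64 and 3.63 RPKM after 4 h and 0.231, 0.391 and 0.567 RPKM in IFNg. Kif4 shares 832 bases with Pdzd11 on the other strand, and as the strand of the counting is not stated their reads cannot be told apart; Pdzd11 had 31.9 RPKM in hWT and 19.9 RPKM in mock at 4 h, where Kif4 had 2.82 and 0.558 RPKM. In all, 10 members overlap a protein-coding gene on the other strand, among them Ccna2 with Exosc9, Ube2c with Tnnc2 and Prc1 with Rccd1. For no kind of cell do the IFNg libraries share a column-name prefix with those of 4 or 8 h of LPS, so prefix and treatment cannot be told apart within a kind of cell. In a model with additive terms for kind, treatment and prefix, added after the data were seen, 5 members were higher and 19 lower at 4 h, and 4 higher and 11 lower at 8 h.

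The kinds of cell differed among these genes at 4 h. Pttg1 had 54.8 and 59.8 RPKM with hG388S, 51.3 and 62.4 RPKM with h379_389, 58.2 and 52.5 RPKM with hWT, and 26.8 and 25.5 RPKM in mock. Mad2l1 had 12.7 and 12.1, 12 and 12.7, and 13.7 and 13.7 RPKM with the same constructs, and 23.6 and 21.2 RPKM in mock. So the mock libraries were the lowest for Pttg1 and the highest for Mad2l1, and they did not overlap the others. At 8 h Mad2l1 had 6.85 and 5.89 RPKM with hG388S, 6.12 and 5.27 RPKM with h379_389, 7.29 and 7.27 RPKM with hWT and 14 and 13 RPKM in mock. These differences at single times were not tested, and at 4 h the mock libraries carry another prefix than the others.

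Over the 5 conditions, 12 members were higher and 1 lower with hG388S than in mock, 15 and 1 with h379_389, and 11 and 0 with hWT (35.9%, 38.3% and 35.7% of all genes in either direction, with 21.1%, 20.6% and 17.8% higher). Counted in either direction, the members passed no more often than other genes in any of these contrasts. The shares that were higher lay somewhat above those of all genes, and this difference was not tested. Cdk1, Racgap1 and Kif4, named as a description, had the smallest adjusted p in each of the 3 contrasts, which share the mock libraries. Cdk1 had log2 fold changes of 0.45 ± 0.05, 0.49 ± 0.05 and 0.47 ± 0.05 with hG388S, h379_389 and hWT (limma, adjusted p = 2.56e-08, 5.39e-09 and 1.72e-08). Mad2l1 was the member that was lower with hG388S and with h379_389. Without hWT untreated replicate 2, which leaves that group with its shallow library, the counts for hWT were 14 and 10. Without the shallow library itself those for h379_389 were 29 and 1.

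Between the altered constructs and hWT in macrophages no member passed in limma (0.0445% of all genes for hG388S and 0.427% for h379_389). At an unadjusted p under 0.05, 3 members were higher and 4 lower with hG388S, and 13 higher and 2 lower with h379_389. The share of all genes under that unadjusted p was not counted here either. Without hWT untreated replicate 2 the counts were 17 and 6 with hG388S and 21 and 4 with h379_389. Without hWT untreated replicate 1, the shallow library, 1 member was lower with hG388S, and without h379_389 untreated replicate 2, 1 was higher with h379_389.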

How the data were processed

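Total RNA of cultured mouse BMMs was sequenced. The deposited gene table is in RPKM, which Partek computed from Tophat alignments to mm10, per the file headers. TopHat2 2.1.0, bcl2fastq 2.17.1 and CASAVA 1.8.4 are among the tools in the submitters' processing notes. Annotation and strand setting are not given in the sources used here. Deposited comparison tables of the authors also hold linear ratio values, fold changes of KO over WT that are not printed here, group means as log2 values, and q-values. Only their q-values and directions were used. RPKM divides by the alignments of the library, so a set of abundant transcripts lowers all others; no counts were used here, and the error is the spread between libraries.

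The 3 experiments had 17, 33 and 40 libraries. A gene entered the fit of an experiment if 2 or more of its libraries reached 1 RPKM, which kept 11530, 11374 and 11237 genes. Values of log2(RPKM + 1) were fitted by group means with limma 3.58.1 in R 4.3.3 (eBayes with trend), leaving 11, 21 and 20 degrees of freedom. All tests were two-sided, with Benjamini-Hochberg adjustment over all genes of each of 39 contrasts and a threshold of 0.05. All 50 members passed the filter in the osteoclast experiments and 47 in macrophages. Log2 fold changes are on the log2(RPKM + 1) scale, which understates changes of low genes, and each is given with its standard error; RPKM values after ± carry the SD. A group of 2 borrows the spread of the others. The fit was tested on simulated data. Gene positions and exonic lengths are from GENCODE M21 (GRCm38), and promoter windows from RefSeq (GRCm38.p6), with the most upstream window of a gene. The 50 members, the role groups, the other gene lists and the marker lists were chosen with earlier results of these data known.

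Genes given library by library are those with the highest mean in their role group, plus Mki67 and Top2a. Named with a test are those, the 3 members of smallest adjusted p and the 2 most abundant that did not pass in a contrast, and from each other list at most 3 passing and 2 not passing at day 0. Other members were named after their values were seen. Alternatives were a pseudocount of 0.1, no filter, scaling by medians of ratios, array weights, the groups compared alone, the replicate block, leaving out single or doubtful libraries, column-name prefix and removal of the trend with gene length.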

Additional observations from a re-analysis of the deposited data

Results flagged for a closer look

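The change of the mitosis genes between days 0 and 4 differed between KO and WT in the test of the difference for 49 of 50 genes, and that between days 0 and 8 for 49 as well, both more negative in KO.

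KO and the transduced Irf8-/- cells moved opposite ways between days 0 and 4. The mean of log2(RPKM + 1) over the 50 genes was 1.04 to 1.504 at day 4 and 4.81 to 4.88 at day 0 in the KO libraries. It was 3.77 to 3.88 at day 4 and 3.09 to 3.29 at day 0 in the mock libraries, which are Irf8-/- as well, and every library of the 3 constructs at day 4 also lay above those of day 0. The change in KO minus that in the other cells was -4.22 for mock, -3.87 for hWT, -4.07 for hG388S and -3.94 for h379_389. These cells belong to separate experiments, and the difference was not tested.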

How the results depend on the processing

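The count of 49 mitosis genes higher in KO than WT at day 0, and of 49 lower in KO at day 4 than at day 0, was the same under every alternative run, also with any 1 library left out, except that Pttg1 joined as lower with array weights in both (adjusted p = 0.0258 and 0.0130), and without the 4 libraries with a length trend in the second (adjusted p = 0.000663). For KO over WT at day 4 (4 genes) the count was 1 without a filter, 2 with scaling by medians of ratios, 1 with the replicate block, 0 with array weights, 0 with the groups alone and 7 without the 4 libraries with a length trend, and 1 to 8 with a library left out; at day 8 (27) it was 16 to 35. For WT at day 4 over day 0 (22) it was 2 with array weights and 8 to 23 with a library left out, and for hWT at day 4 over day 0 (23) 41 with array weights and 9 with the groups alone.

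For hG388S over hWT at day 0 (1) it was 0 with a pseudocount of 0.1, without a filter, with the replicate block and with the groups alone, 49 with array weights and 0 to 26 with a library left out, and for h379_389 (0) 16 with array weights and 0 to 6. At day 4 hG388S over hWT (16) gave 37 with array weights, 34 with the groups alone, 6 to 14 with a library left out, and 11, with more higher than lower, once the length trend was removed; h379_389 over hWT (17) gave 36 and 33. Over mock at day 8 a left-out library gave 19 to 34 for hG388S, 22 to 34 for h379_389 and 15 to 34 for hWT, and hG388S at day 8 over day 4 gave 13 to 25.

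In macrophages hG388S over mock (13) gave 22 with the groups alone, h379_389 over mock (16) 28 with array weights and 30 without the shallowest library, and hWT over mock (11) 4 with array weights and 8 to 24 with a library left out. Over hWT, hG388S (0) gave 1 with the replicate block, 1 without the shallowest library and 0 to 23 with a library left out, and h379_389 (0) gave 1 within a name prefix and 0 to 25. For 1 h of LPS (14) the count was 24 with medians of ratios, 28 with array weights, 27 with the groups alone, 23 without the shallowest library and 9 with additive prefix terms, which gave 24 at 4 h and 15 at 8 h.

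Changes that did not pass and turned in sign were those of Pttg1 in KO at day 4 over day 0 (-0.38 with array weights, -0.41 to 0.257 with 1 library left out, -0.01 without KO day 0 replicate 1, -0.41 without the length-trend libraries, -0.20 with the trend removed), Incenp in KO at day 8 over day 4 (-0.23 without those libraries), Ube2c (0.0732 with medians of ratios, 0.0218 with array weights, -0.159 to 0.0323 with a library left out) and Cdca3 (0.0240, 0.0204 and -0.245 to 0.0927) in KO over WT at day 8, and Ube2c with hWT over mock at day 0 (0.0752 with array weights, -0.348 to 0.0297 with a library left out, 0.24 with the trend removed). The cause was not tested for any of these. Replicates with the same number did not deviate together on average (mean correlation of 0.036, 0.002 and -0.005 in the 3 experiments). Single correlations ran from -0.351 to 0.899, -0.655 to 0.609 and -0.631 to 0.545, so the means cannot tell whether the numbers pair libraries. At day 4, replicate 1 of WT and KO deviated with gene length (rho 0.593 and 0.627), as did KO replicate 2 (0.626). Replicate 3 of both deviated against it (-0.593 and -0.661). The block moved no other count by over 1.5 times. In all, 576 of 642 other counts stayed within 1.5 times the reported one.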
